A study of Oryza sativa with 8 samples.

Results

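Mitogen-activated protein kinases (MAP kinases, MPK) and the MAP kinase kinases (MKK) that activate them were followed in rice roots by the level of their transcripts. The 10 genes were chosen by their identifiers in release 7 of the Michigan State University rice annotation, out of 55986 genes in the deposited counts. The rule uses no measured value, but the genes were picked with earlier results of these data known. They comprise 5 MAP kinases, MPK3 (LOC_Os03g17700), MPK6 (LOC_Os06g06090), MPK4 (LOC_Os10g38950), MPK7 (LOC_Os06g48590) and BWMK1 (LOC_Os06g49430), and 5 MAP kinase kinases, MKK3 (LOC_Os06g27890), MKK4 (LOC_Os02g54600), MKK5 (LOC_Os06g09180), MKK6 (LOC_Os01g32660) and MKK10-2 (LOC_Os03g12390). Several numbering schemes exist for rice MAP kinases. In RefSeq the names MPK4, MPK6 and MPK7 belong to genes on chromosomes other than those of the loci used here, so the identifiers rather than the names define the genes.

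The comparison was between 4 libraries of digested roots, in which enzymes that degrade the cell wall had released protoplasts and some pieces remained undigested, and 4 libraries of intact roots taken straight from gel. Both groups came from seedlings of Xkitaake, a Kitaake rice line labelled as the wild type that carries the immune receptor gene XA21 under the maize ubiquitin promoter. All libraries therefore share this transgene, and none is from a plant without it. The purpose given for the series was to find the genes whose expression responds to protoplast preparation, so that they could be set aside in single-cell data. The labels do not say whether the replicates came from separate batches of seedlings, so the p-values below measure only the spread between these samples.

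In a MAP kinase cascade, a MAP kinase kinase kinase phosphorylates a MAP kinase kinase, which in turn phosphorylates a MAP kinase that acts on transcription factors and enzymes. In rice, MPK3 and MPK6 are activated when receptors at the plasma membrane detect fungal chitin and other microbial or damage signals, and MKK4 is a direct activator of both. Transcript levels as measured here do not report the phosphorylation of the kinases, which sets their activity.

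The libraries were made by 3′ tag sequencing, in which each transcript gives about 1 tag near its end, so levels in CPM (a gene's counts relative to the library's total on tested genes, scaled by edgeR's TMM factors) can be set side by side between genes without division by gene length. Digested libraries held 115006 to 471019 counts on genes, against 2333236 to 3595349 in intact libraries, a median 12.5 times deeper. A single count was worth 2.46 to 9.29 CPM in digested libraries, against 0.249 to 0.407 CPM in intact libraries. Reads placed at more than 1 site made up 13.0% to 24.3% of the sum in digested libraries and 3.93% to 5.36% in intact libraries. The summed level of 58 root cell type markers was 1727 to 2158 CPM in digested libraries, against 3820 to 4197 CPM in intact libraries. Of these markers 47 could be tested, of which 1 was higher and 28 were lower in digested roots. Among all tested genes 20.0% were higher and 18.5% lower. A marker scarce in digested roots can be tested through its intact counts alone, so the 28 are not read against that share. The median log2 fold change of the tested markers was -1.41, and 6 markers had no count in any digested library (3 trichoblast, 1 exodermis and 2 phloem markers). These 6 had only 2 to 53 counts each over all intact libraries, so 0 counts at the digested depth need not be a fall. In bulk samples of this kind, fewer cells of a type and less RNA per cell cannot be told apart. When intact libraries were thinned to as few counts as digested ones, MPK3, MPK4, BWMK1 and MKK6 were still called higher, and MKK4 and MKK5 had too few counts to be tested. The part of cell type composition in the changes below was not tested.

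Taken as a sum, transcripts of the 10 chosen kinase genes stood higher in the digested roots. The summed level of the 10 genes was 1166, 1347, 1143 and 1303 CPM in digested libraries 1 to 4, against 512, 456, 516 and 475 CPM in intact libraries 1 to 4. Every digested library was above every intact library. The 5 MAP kinases contributed 807 to 992 CPM of this sum in digested libraries, against 312 to 357 CPM in intact libraries, and the 5 MAP kinase kinases 307 to 398 CPM, against 144 to 163 CPM. Changes were tested by the quasi-likelihood test of edgeR, adjusted by Benjamini and Hochberg's method over all tested genes. Of the 10 genes 9 were tested and 6 changed at an adjusted p under 0.05, where 38.5% of the 13104 tested genes did. MPK3, MPK4, BWMK1, MKK4 and MKK6 rose, which is 5 of the 9 genes that passed the filter on low counts, where 20.0% of all tested genes rose. MKK5 was the 1 gene that fell. It passed the filter through the intact libraries alone, where it is higher. Its fall is therefore not read against the 18.5% of all tested genes that fell, nor its call against the 38.5% that changed. MPK6, MPK7 and MKK3 were tested and not called, and MKK10-2 had too few counts to pass the filter. The digested and intact values did not overlap for 6 of the 9 tested genes (the 5 that rose and MPK6), where this held for 37.2% of all tested genes. The median log2 fold change of the 9 tested kinase genes was 1.26, against -0.06 over all tested genes, and these values are a description, since the genes were picked with earlier results known. The upper quartile of all tested genes was 0.58, and the 5 genes that rose all lay above it.

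**Figure D1:**
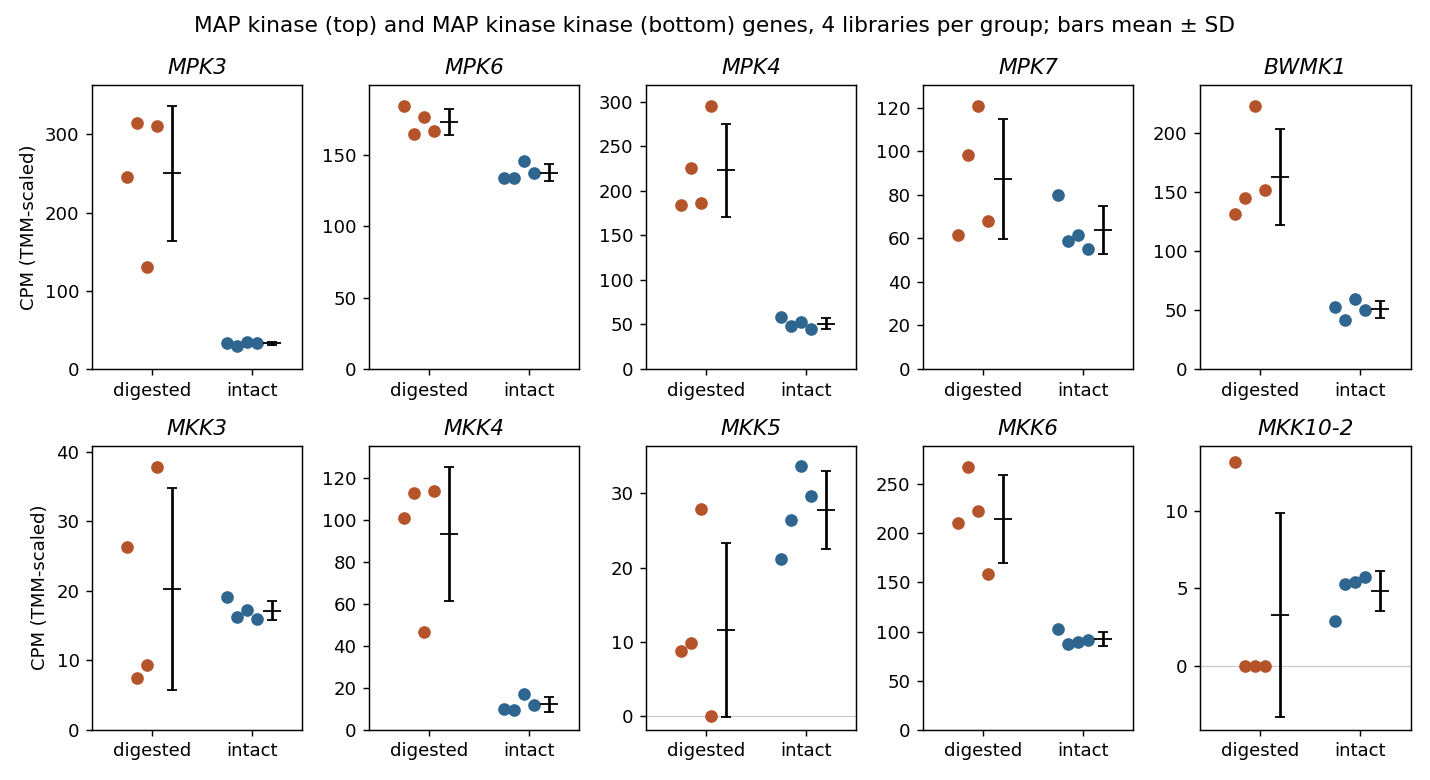
Levels of the 10 genes in CPM scaled by TMM factors, with 1 point per library (digested roots at the left of each panel, intact roots at the right) and bars for the mean ± SD (n = 4). The vertical axes differ between panels. The digested and intact points of MPK3, MPK6, MPK4, BWMK1, MKK4 and MKK6 do not overlap, and the digested points of MKK5 reach 27.9 CPM, within the intact range of 21.2 to 33.7 CPM.

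RefSeq gives the name MPK3 to 2 genes, of which 1 lies on the chromosome of the locus used here, with the synonyms MAPK5 and BIMK1. MPK3, a kinase of chitin and wound signalling, showed the largest rise among the 5 MAP kinases. Its level was 245, 315, 130.1 and 310.5 CPM in digested libraries 1 to 4, against 33.1, 29.7, 34.8 and 33.7 CPM in intact libraries 1 to 4. The lowest digested library, number 3, which is also the shallowest with 14 MPK3 counts, was still above the highest intact library. The mean was 250.2 ± 86.1 CPM in digested roots and 32.8 ± 2.20 CPM in intact roots (SD, n = 4 each). On the log2 scale the fold change was 2.98 (SE 0.23, 95% interval 2.51 to 3.44, edgeR quasi-likelihood adjusted p = 1.03e-11), which is 7.87-fold, and 94.2% of the tested genes had a smaller value. MPK3 was thereby the most abundant of the 10 genes in digested roots and the sixth in intact roots.

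MPK6, the kinase that most often acts beside MPK3 in immune signalling, changed little. Its level was 184, 165, 177 and 167 CPM in digested libraries 1 to 4, against 134, 133, 146 and 137 CPM in intact libraries 1 to 4. The groups did not overlap, yet they lay close together, with means of 173 ± 9.06 CPM in digested roots and 137 ± 5.69 CPM in intact roots (SD, n = 4 each). The log2 fold change of 0.33 (SE 0.19, 95% interval -0.06 to 0.71) missed the threshold in edgeR's quasi-likelihood test (adjusted p = 0.176). The interval reaches a rise of 0.71 on the log2 scale, so the result does not show that MPK6 was unaffected. The spread of MPK6 among digested libraries, a coefficient of variation of 5.24%, was below the 16.3% expected from its counts alone. MPK6 was the most abundant of the 10 genes in intact roots and the fourth in digested roots.

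MPK4, at the locus on chromosome 10, rose in every digested library. Its level was 184, 226, 186 and 295 CPM in digested libraries 1 to 4, against 58.3, 48.4, 52.4 and 44.6 CPM in intact libraries 1 to 4. The groups were far apart, and digested library 4 was the highest. The means were 223 ± 52.1 CPM in digested roots and 50.9 ± 5.83 CPM in intact roots (SD, n = 4 each). This was a log2 difference of 2.12 (SE 0.21, 95% interval 1.70 to 2.55, edgeR quasi-likelihood adjusted p = 2.03e-09), or 4.36-fold.

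BWMK1, named for the induction of its transcript by the blast fungus and by wounding, and with the synonym MPK12 in RefSeq, rose by a smaller factor. Its level was 132, 145, 223 and 151 CPM in digested libraries 1 to 4, against 52.1, 41.5, 59.2 and 49.9 CPM in intact libraries 1 to 4. Digested library 3, the library in which MPK3 was lowest, was here the highest. Its log2 fold change was 1.63 (SE 0.22, 95% interval 1.17 to 2.08, edgeR quasi-likelihood adjusted p = 8.10e-07), or 3.09-fold, and it was 1.39 without digested library 3.

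MPK7, a MAP kinase that in rice has been placed below MKK3 in the response to bacterial blight, was not called. Its level was 61.4, 98.3, 121 and 68.2 CPM in digested libraries 1 to 4, against 79.8, 59.0, 61.7 and 55.1 CPM in intact libraries 1 to 4. Digested libraries 2 and 3 were above all intact libraries, while digested libraries 1 and 4 fell within the intact range. The log2 fold change was 0.43 (SE 0.25, 95% interval -0.08 to 0.94, edgeR quasi-likelihood adjusted p = 0.181). MKK3 itself was scarce. It had 6, 3, 1 and 5 counts in digested libraries 1 to 4, against 53, 40, 48 and 64 counts in intact libraries 1 to 4. In CPM these were 26.3, 7.37, 9.29 and 37.9 in digested libraries, spread to both sides of the 19.1, 16.3, 17.2 and 16.0 in intact libraries. The log2 fold change of 0.05 (SE 0.45, 95% interval -0.87 to 0.97, edgeR quasi-likelihood adjusted p = 0.946) has an interval that spans nearly 1 log2 unit on either side of 0.

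**Figure D2:**
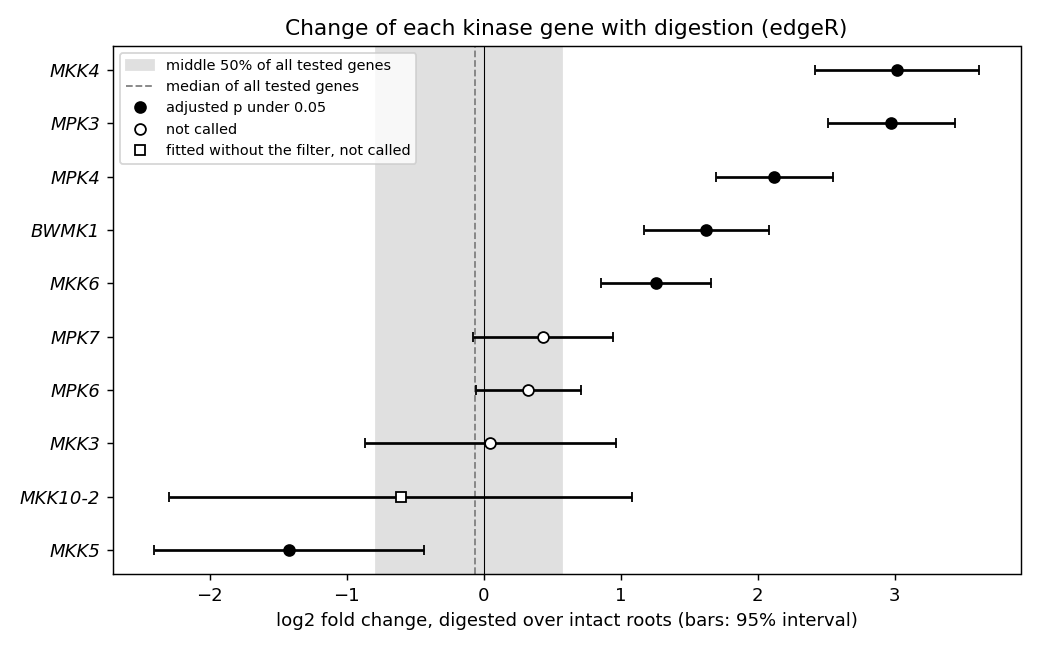
Log2 fold change of each gene in digested over intact roots from edgeR, with bars for the 95% interval. Filled points mark an adjusted p under 0.05, open circles were not called, the open square is MKK10-2 from the fit without the filter on low counts, and the shaded band is the range between the quartiles of all 13104 tested genes, -0.79 to 0.58. MPK3 and MKK4 lie farthest to the right near 3, and MKK5 is the 1 filled point to the left of 0.

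Among the 5 MAP kinase kinases, MKK4 rose the most. This kinase activates MPK3 and MPK6 in rice, where it lies on the path from chitin perception to the phytoalexins, and it also affects grain size. Its level was 101, 113, 46.5 and 114 CPM in digested libraries 1 to 4, against 9.71, 9.36, 17.2 and 12.0 CPM in intact libraries 1 to 4. Digested library 3, with 5 counts, was the lowest of its group and still above every intact library. The means were 93.5 ± 31.9 CPM in digested roots and 12.1 ± 3.63 CPM in intact roots (SD, n = 4 each). This was a log2 difference of 3.02 (SE 0.29, 95% interval 2.42 to 3.62, edgeR quasi-likelihood adjusted p = 1.39e-09), or 8.12-fold. MKK4 had a higher level than 21.3% of the tested genes in intact roots, and in digested roots it passed 80.5% of them.

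MKK6 stood high in both groups. Its counterpart in Arabidopsis activates MPK4 in cytokinesis, and the rice gene has been linked to cold tolerance. Its level was 210.4, 268, 223 and 159 CPM in digested libraries 1 to 4, against 102, 87.0, 89.0 and 91.2 CPM in intact libraries 1 to 4. No digested library came down to the intact range, and digested library 2 was the highest. The change was 1.26 on the log2 scale (SE 0.20, 95% interval 0.85 to 1.66, edgeR quasi-likelihood adjusted p = 6.34e-06), or 2.39-fold.

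MKK5 went the other way, on few counts. In Arabidopsis a kinase of this name works together with MKK4 on MPK3 and MPK6. It had 2, 4, 3 and 0 counts in digested libraries 1 to 4, against 59, 65, 94 and 119 counts in intact libraries 1 to 4. In CPM these were 8.77, 9.83, 27.9 and 0 in digested libraries, against 21.2, 26.4, 33.7 and 29.7 in intact libraries. The groups overlapped, since the 3 counts of digested library 3 equal 27.9 CPM at its depth, and the 0 of digested library 4 allows up to 22.7 CPM (3 counts, counting error only). The log2 fold change was -1.42 (SE 0.48, 95% interval -2.41 to -0.43, edgeR quasi-likelihood adjusted p = 0.0200). The call was lost without digested library 2, with a log2 fold change of -1.53 at an adjusted p = 0.0624 in edgeR's quasi-likelihood test, and MKK5 was the 1 of the 6 calls that any alternative run on its gene removed.

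MKK10-2, which in rice activates MPK3 and MPK6, was near the limit of detection. It had 3, 0, 0 and 0 counts in digested libraries 1 to 4, against 8, 13, 15 and 23 counts in intact libraries 1 to 4. At 3 counts the limit in a digested library is 7.37 to 27.9 CPM, which is above the 2.88 to 5.73 CPM measured in intact libraries, so neither a fall nor a moderate rise was detectable at this depth. In the edgeR fit without the filter the log2 fold change was -0.60 (95% interval -2.29 to 1.09, quasi-likelihood adjusted p = 0.711).

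The order of the genes differed between the groups. In digested roots, MPK3, MPK4, MKK6, MPK6 and BWMK1 came first, with each neighbour overlapping the next in its library values. MKK4 and MPK7 followed and overlapped each other, and MKK3, MKK5 and MKK10-2 came last, again with overlap. In intact roots MPK6 stood above all the others and MKK6 came next, each clear of its neighbours. MPK7, MPK4 and BWMK1 overlapped in the middle, MPK3 overlapped MKK5, MKK3 overlapped MKK4, and MKK10-2 was lowest.

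Shares within a library do not depend on the scaling between libraries. The counts of each gene were therefore also taken as a percentage of the counts of all 10 genes, which were 123 to 548 per digested library and 1122 to 1905 per intact library. The share of MPK3 was 19.9 ± 5.81% in digested roots, against 6.70 ± 0.286% in intact roots (SD, n = 4 each). MPK4 held 17.9 ± 3.22% in digested roots, against 10.4 ± 0.830% in intact roots, and MKK4 7.46 ± 2.27%, against 2.45 ± 0.647%. These shares were larger in all 4 digested libraries than in any intact library. MPK6 took the opposite course, with 14.1 ± 1.82% in digested roots against 28.1 ± 1.39% in intact roots. MPK7 held 7.09 ± 2.51% in digested roots, against 13.0 ± 1.80% in intact roots, and MKK5 0.980 ± 1.03%, against 5.68 ± 1.07%. The share of MKK3 was 1.63 ± 1.13% in digested roots, against 3.50 ± 0.183% in intact roots. Each of these 7 shares gave p = 0.0286 in a two-sided exact permutation test, the smallest that 4 libraries against 4 can give, without adjustment over the 10 shares compared. BWMK1 (13.3 ± 4.16% in digested roots, 10.3 ± 0.979% in intact roots) and MKK6 (17.4 ± 3.56% in digested roots, 18.9 ± 1.15% in intact roots) did not pass, with exact permutation p = 0.0857 and p = 0.657. Nor did MKK10-2, with 0.282 ± 0.564% in digested roots and 0.993 ± 0.295% in intact roots (exact permutation p = 0.0857). Single libraries weigh on the uncalled shares. The difference of BWMK1, digested minus intact, was 2.99 percentage points with all libraries and 0.915 without digested library 3, and that of MKK6 was -1.45 with all libraries and 0.283 without digested library 4. Because the 10 shares of a library add up to the whole, a smaller share of MPK6 or MPK7 goes with the larger shares of others and is no fall in level.

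MPK3 and MPK6, and MKK4 and MKK5, are known as pairs in immune signalling, and the balance inside both differed between the groups. These shares were taken up after the values had been seen and are given without a test. MPK3 held 57.1%, 65.6%, 42.4% and 65.1% of the counts of MPK3 and MPK6 in digested libraries 1 to 4, against 19.8%, 18.2%, 19.3% and 19.7% in intact libraries 1 to 4. In 3 of the 4 digested libraries MPK3 had more counts than MPK6, and in no intact library did it. The exact Clopper-Pearson 95% interval of digested library 3, the widest, was 25.5% to 60.8% on 33 counts. MKK4 held 92.0%, 92.0%, 62.5% and 100% of the counts of MKK4 and MKK5 in digested libraries 1 to 4, on 25, 50, 8 and 15 counts. In intact libraries 1 to 4 it held 31.4%, 26.1%, 33.8% and 28.7%, on 86 to 167 counts. The interval of digested library 3 was 24.5% to 91.5% on its 8 counts and covers the intact values, while those of the other digested libraries do not.

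**Figure D3:**
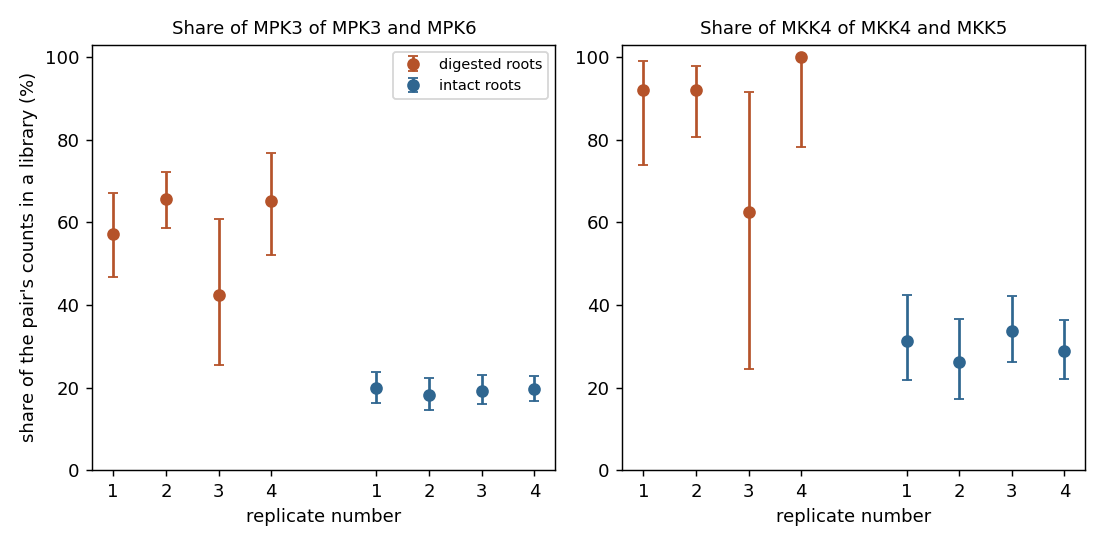
Share of MPK3 in the counts of MPK3 and MPK6 (left) and of MKK4 in the counts of MKK4 and MKK5 (right), in percent, for each digested and each intact library by replicate number, with exact Clopper-Pearson 95% intervals that cover counting error only. Digested libraries run from 42.4% to 65.6% at the left and from 62.5% to 100% at the right, above the intact libraries in both panels.

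For each of the 10 genes the coefficient of variation was larger among digested than among intact libraries. The part expected from counting alone was also larger in digested libraries for each gene. Not every gene spread more than counting gives, since MPK6 had 5.24% in digested roots against 16.3% from counting. The coefficient of variation of MPK3 was 34.4% in digested roots and 6.69% in intact roots, while counting alone would give 12.9% and 10.0%. For MKK4 it was 34.1% in digested roots and 30.1% in intact roots, with 21.2% and 16.6% from counting. For MPK4 it was 23.4% in digested roots and 11.5% in intact roots, with 14.4% and 8.12% from counting. Digested library 3 was low for MPK3 and MKK4 and high for BWMK1 and MPK7. Without it the log2 fold change was 3.05 for MPK3 and 3.08 for MKK4, and all 6 calls were made.

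Further genes of the pathway were read by count. Of 10 further loci taken as rice MAP kinases, 8 were tested, of which 1 rose and none fell, where 20.0% of all tested genes rose and 18.5% fell. Their median log2 fold change was -0.18, against -0.06 over all tested genes, and the count is too small to set apart from that background. Their summed level was 356 to 412 CPM in digested libraries, against 319 to 373 CPM in intact libraries. Of 3 further loci taken as MAP kinase kinases, 1 was tested, and it rose (edgeR quasi-likelihood adjusted p = 0.00498). A list of 23 genes that the study assigned to root defence responses, on which MAP kinase signalling bears, had 9 tested genes, of which 4 fell, none rose and 5 were not called, where 18.5% of all tested genes fell. The median log2 fold change of these 9 genes was -1.38. A gene scarce in digested roots can pass the filter on low counts through the intact libraries alone. Whether any of the 9 did was not examined, so the 4 are not read against the 18.5%. The summed level of the list was 174 to 273 CPM in digested libraries, against 1125 to 1406 CPM in intact libraries. Of these 23 genes, 8 had no count in any digested library and 2 had none in any intact library. Of the 23, 6 had fewer than 10 counts over all libraries. At the digested depth 0 counts need not be a fall. The summed level can rest on a few abundant genes, and its relation to the rise of the kinase genes was not tested. Of the tested cell type markers, the genes that fell were 7 of 8 for trichoblasts, 4 of 4 for vascular tissue, 6 of 8 for xylem, 3 of 5 for cortex, 2 of 3 for sclerenchyma, 2 of 4 for atrichoblasts, 1 of 2 for exodermis, 1 of 2 for root cap, 1 of 1 for epidermis, 1 of 5 for endodermis and 0 of 5 for meristem, where 18.5% of all tested genes fell. The 1 marker that rose was an atrichoblast gene, and no phloem marker could be tested. Markers too can pass the filter through the intact libraries alone. The epidermis marker had 0 to 19.7 CPM in digested libraries, against 30.2 to 41.1 CPM in intact libraries. The marker counts are therefore not read against the 18.5%.

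**Figure D4:**
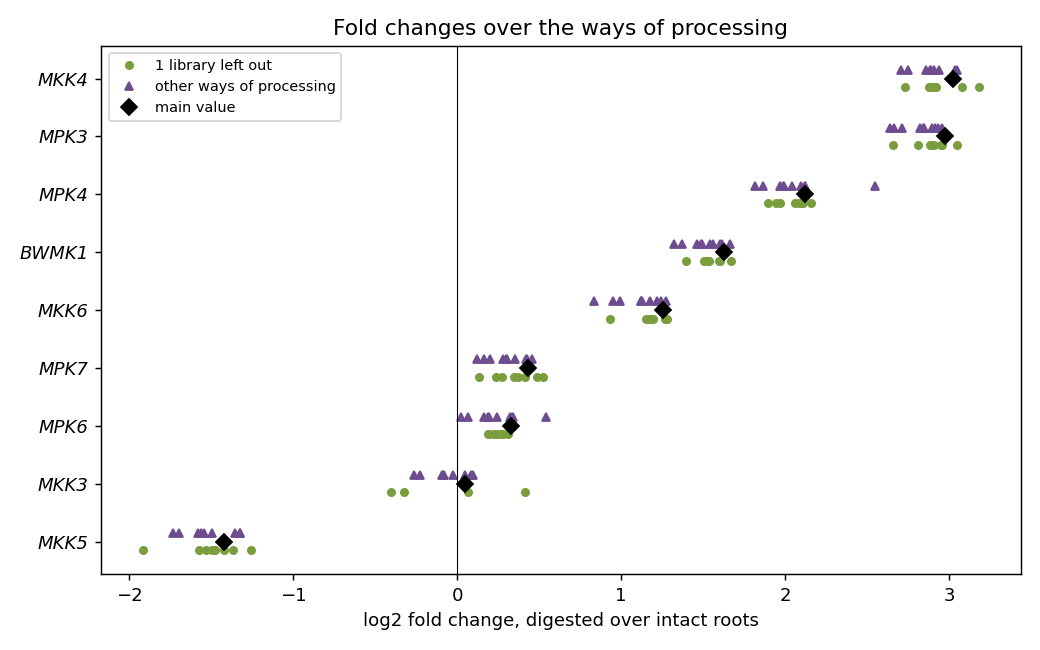
Log2 fold change in digested over intact roots for 9 of the genes under each way of processing, with a diamond for the reported value, circles for fits with 1 library left out and triangles for other scalings, filters and tests. MKK10-2 is left out because its few counts give values that depend on the prior count. MPK3 stays between 2.64 and 3.05 and MKK4 between 2.71 and 3.18, and only MKK3 lies on both sides of 0.

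Over the other ways of processing the counts, MPK3, MPK4, BWMK1 and MKK6 were called higher in all 18 and MKK4 in all 17 that could be run for it. A prior count of 2, counted among these, alters the fold change but not the test, so its calls repeat the main ones. The lowest log2 fold changes were 2.64 for MPK3, 1.82 for MPK4, 1.32 for BWMK1, 2.71 for MKK4 and 0.83 for MKK6. MPK6 and MPK7 were called in none of 18, with log2 fold changes of 0.02 to 0.54 for MPK6 and 0.12 to 0.52 for MPK7.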

How the data were processed

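Total RNA of 4 digested and 4 intact root samples was sequenced with a 3′ tag kit with unique molecular identifiers. Reads were mapped by the authors to the Michigan State University genome (release 7) and duplicates were dropped, and they deposited raw whole counts per gene, 1 file per library. The submitters' processing notes name STAR, UMI-tools, HTSeq and edgeR. The 5 HTSeq summary rows, 17.2% to 37.8% of a library's sum, were left out. Because reads placed at several sites were not counted, genes with near-identical copies may be underestimated.

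Counts were fitted with edgeR 4.0.16 under R 4.3.3 (TMM scaling, filterByExpr by group, robust glmQLFit, glmQLFTest, prior count 0.125, Benjamini-Hochberg adjustment over all tested genes, threshold 0.05), on the condition alone, with the direction digested over intact roots. The SE is the absolute log2 fold change over the square root of F. MKK10-2 was taken from the fit without the filter. Depth was 115006 to 471019 counts in digested libraries and 2333236 to 3595349 in intact libraries. Intervals are at the 95% level, and floors of 3 counts and count-based intervals cover counting error only. No pair of replicates agreed within sampling noise, with a chi-square of 1.72 to 7.65 per degree of freedom. All 10 genes were named, whatever their values. The genes, the further loci, the defence list and the marker list were chosen with earlier results of these data known. The further loci were taken from general knowledge of the rice family and are annotated in none of the sources used here, so only counts over them are given. None of the 10 identifiers was found in the RefSeq table, which was used for names and synonyms alone. Alternatives were other scalings (DESeq2 size factors, total counts, upper quartile), no filter, a filter of 1 CPM in 4 libraries, DESeq2 1.42.0, limma-voom (limma 3.58.1), a replicate block, thinned intact counts, a threshold of 0.01, a prior count of 2 and each library left out. Leaving out libraries for the shares of the MPK3 and MPK6 pair, of the MKK4 and MKK5 pair and of the 5 MAP kinases was added after seeing the data. The fitting procedure was tested on simulated data. Figures were drawn with matplotlib.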

Additional observations from a re-analysis of the deposited data

Results flagged for a closer look

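In 6 of 48 groups of 4 libraries, the highest or lowest library stood apart from the other 3 by a gap, relative to the group's range, above Dixon's 95% critical value. Chance would give about 1 such group in 20, or 2.4 of 48, for independent groups of continuous values. Here the level and the share of a gene rest on the same counts, so the 6 are not read against the 2.4. The causes were not tested. MKK10-2 was at 13.2 CPM in digested library 1, which is 3 counts, and at 0 in the other digested libraries. Its share of the 10 genes' counts in digested library 1 was 1.13%. With the other digested libraries at 0, the gap equals the range for both values, so these flags were fixed by the low counts. MKK10-2 was at 2.88 CPM in intact library 1, below the 5.29 to 5.73 CPM of the other intact libraries. The share of MPK4 was 22.7% in digested library 4, against 15.8% to 16.8% in the other digested libraries. The share of BWMK1 was 19.5% in digested library 3, above the 10.8% to 11.6% of the other digested libraries, and the share of MKK4 in that library was 4.07%, below their 8.39% to 8.72%.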

How the results depend on the processing

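The rise of MPK3, MPK4, BWMK1, MKK4 and MKK6 held under each alternative that could be run for it; thinning the intact counts to the digested depth left 4 kinase genes to call, because MKK4 and MKK5 then had too few counts. The fall of MKK5 was called in 15 of 17 alternatives, among them the prior count of 2, which cannot change a call. It was lost with a replicate block (log2 fold change -1.36, adjusted p = 0.0558 in edgeR's quasi-likelihood test), which left 0 kinase genes that fell and 5 that changed, and likewise 0 at an adjusted p under 0.01 and with thinned counts. With 1 library left out, 0 to 1 kinase genes fell. Replicates of the same number correlated at -0.29, 0.05, -0.11 and -0.06, so the numbers were not taken to pair the libraries. Over all genes, 5048 were called, 2618 higher and 2430 lower in digested roots; 4180 were called with the replicate block, 2204 (1211 higher, 993 lower) with thinned counts, and 3791 to 5341 with 1 library left out, of which 1942 to 2538 were higher and 1734 to 2803 lower. Lower genes numbered 3722 with total counts and 1611 at an adjusted p under 0.01. Other scalings moved the median of all genes by -0.14 (DESeq2 size factors), -0.31 (total counts) and -0.27 (upper quartile), and the kinase genes moved with it. The uncalled value of MKK3 changed sign, to -0.089 (DESeq2 size factors), -0.092 (the DESeq2 test), -0.26 (total counts), -0.22 (upper quartile), -0.078 (no filter), -0.028 (a filter of 1 CPM) and -0.40 to 0.41 with 1 digested library left out. Without an intact library it did not pass the filter on low counts. That of MKK10-2 was 0.21 without digested library 2, and -6.16 without digested library 1, which depends on the prior count and is no bound. The cause was not tested. The digested depth limits MKK3, MKK5 and MKK10-2 most.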
